A study of Homo sapiens with 16 samples.

Results

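The genes described here encode the subunits of 2 related complexes, the MuvB core and the DREAM repressor: LIN9, LIN37, LIN52, LIN54, RBBP4, RBL1, RBL2, E2F4, E2F5 and TFDP1. They were chosen by name, by their known place in the complexes, and the MYB family was left out. All 10 were listed in each of the 6 tables analysed, out of 19315 genes listed in at least 1 table and 12069 listed in all 6. The tables come from total RNA sequencing of 16 libraries, 2 per group, made from 2 human cancer lines, HCT116 (colorectal carcinoma) and U2OS (osteosarcoma). Each line was transfected for 48 h with a small interfering RNA (siRNA) without a target (siCtrl), with siRNA against MYBL1 (A-MYB; siMYBL1), with siRNA against MYBL2 (B-MYB; siMYBL2), or with both targeting siRNAs (the double knockdown). Every group, controls included, was therefore transfected with siRNA. Each table compares 1 knockdown with siCtrl of its line, so the 3 tables of a line share their 2 control libraries.

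MuvB is made of LIN9, LIN37, LIN52, LIN54 and RBBP4. In resting cells it joins the pocket protein p130 or p107 (genes RBL2 and RBL1) and a dimer of E2F4 or E2F5 with DP1 (gene TFDP1) to form DREAM, which holds cell cycle genes off. In cycling cells the pocket protein and the E2F dimer leave, MuvB binds MYBL2 and then FOXM1, and the same core helps to switch on genes of G2 and mitosis. The question for these genes is whether the messenger RNAs of the complex that MYBL2 works through change when MYBL1, MYBL2 or both are depleted.

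The promoters of several subunits hold letters of the DNA elements that the complexes read, and these are shown because the same elements mark the target genes. RefSeq promoter windows (build GRCh38.p14, from 250 bases before to 50 after an annotated start) were matched by symbol for 9 of the 10 genes, in 15 windows, some of which overlap. The windows were searched on both strands for the cell cycle homology region (CHR) that LIN54 binds, as TTTGAA or TTCGAA, and for E2F sites, as TTTCCCGC, TTTGGCGC, TTTCGCGC or TTTGCCGC. CHR letters stood in windows of 4 of the 9 genes, against 19.5% of the 27305 genes with a window, and E2F letters in those of 3 of the 9, against 3.99%. Genes differ in their number of windows. Counted by window, CHR letters stood in 5 of the 15, against 16.4% of all 35116 windows, and E2F letters in 3, against 3.31%. The capitals mark the match, and each line gives the gene's own strand, 5′ to 3′.
LIN9, chr1:226309207-226309236, CHR letters 60 bases before the start: gcgagctccgcaTTCGAAcctccctcgcaa
LIN9, chr1:226309150-226309179, CHR letters across the same start: cggcgggcagccTTTGAAaaagcggcgcgg
LIN37, chr19:35748620-35748649, CHR letters 182 bases before the start: acgaagctcatcTTTGAActgtccccgcct
LIN54, chr4:83010906-83010935, CHR letters 100 bases before the start: ggcccttgtgcgTTTGAAggttggcggggc
RBL2, chr16:53434483-53434512, CHR letters from base 25 after the start: ggcgcttcgccgTTTGAAtggctgcgggcc
RBL1, chr20:37096000-37096029, 2 E2F matches from 26 bases before the start: gcagatTTTCGCGCgcTTTGGCGCaggtgg
LIN52, chr14:74084920-74084949, E2F letters 25 bases before the start: tggaacctcgtTTTCCCGCcgacggttggc
TFDP1, chr13:113584622-113584651, E2F letters on the opposite strand 120 bases before the start: gggcgccgaagGCGCGAAAaggcgcgcagg
The start in each line is that of the window searched, and a gene can have several. All printed CHR letters lie inside the gene spans given below, so downstream of the outermost start of their gene. The E2F letters of RBL1, LIN52 and TFDP1 lie before the spans of those genes. LIN9, LIN37 and RBL2 each had 1 or more further windows without these letters. RBBP4 and E2F4 windows held neither set of letters. A match of letters is a description of the sequence and not evidence of binding.

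Across the series, MYBL2 was at 9.05% and 9.92% of control in HCT116 and 4.53% and 4.34% in U2OS, after siMYBL2 and both siRNAs. MYBL1 was at 31.4% and 27.8% in HCT116 and 50.7% and 43.5% in U2OS, after siMYBL1 and both siRNAs. Each was lower wherever its siRNA was used. Markers of the labelled cell types were present: summed base means of epithelial markers were 73256 to 83770 in HCT116, with 11 of 14 markers listed, and those of mesenchymal or bone markers were 81713 to 90797 in U2OS, with 12 of 14 listed, against 3118 to 3617 in HCT116. Epithelial markers also summed to 48544 to 54320 in U2OS, with 9 of 14 listed. VIL1, CDX1 and LGALS4 were not listed in HCT116 and COL1A2 and TWIST1 not in U2OS, while the simple epithelial keratin KRT8 was the highest epithelial marker in both lines. Summed blood cell markers reached at most 65.0 in a table. The base mean, which averages normalized counts of the 4 libraries compared in a table, summed to between 17441617 and 19826741 over listed genes. No table gives values per library, so the spread between the 2 libraries of a group enters only through the standard error (SE) of each fold change.

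The subunits were expressed in both lines at widely different levels. A level for each group was estimated from the base mean and fold change of a table, in normalized counts, and the 3 estimates of a line's siCtrl level for a gene differed by at most 1.15-fold. RBBP4, a histone-binding protein shared with other chromatin complexes, had siCtrl levels of 4620 to 4802 in HCT116 and 3687 to 3879 in U2OS. TFDP1 had siCtrl levels of 3770 to 4049 and 2511 to 2837, and E2F4 of 2195 to 2346 and 1275 to 1331. RBL2 came next in U2OS, at 1012 to 1069, and was at 550 to 631 in HCT116. LIN37, needed for repression by DREAM, was at 143 to 157 in HCT116 and 187 to 194 in U2OS.

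Per kilobase of the median coding transcript, RBBP4, TFDP1 and E2F4 led in both lines, with 2694, 1432 and 1061 normalized counts per kb in HCT116 and 2207, 974 and 609 in U2OS. When the longest transcript was used, RBBP4 moved to place 3 in both lines, at 587 and 481 per kb. In HCT116 the siCtrl levels per kb of LIN54 (132), LIN37 (132), RBL1 (129), E2F5 (127), LIN52 (121) and RBL2 (121) lay close together, and LIN9 was last at 85.3. That closeness depended on the transcript chosen, since with the longest transcript LIN54 was at 73.8 and RBL1 at 101, while LIN37, LIN52 and RBL2 did not move. In U2OS, RBL2 (213) and LIN52 (208) were followed by LIN37 (168), LIN9 (153), LIN54 (146), RBL1 (94.3) and E2F5 (49.7), and with the longest transcript LIN54 was at 81.7. No spread between libraries is known for these levels, so neighbours in the orders are not shown to differ.

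The 2 pocket proteins and the 2 E2Fs stood in different ratios in the lines. Per kb, siCtrl levels of RBL2 were 0.921 to 0.997 times those of RBL1 in HCT116 and 2.16 to 2.31 times in U2OS. With the longest transcripts these ratios were 1.19 and 2.95. E2F4 exceeded E2F5 per kb by 8.28 to 8.49 times in HCT116 and 12.2 to 12.5 times in U2OS. The tables of the 2 lines were normalized separately and no test between lines was made of these levels. Set side by side, siCtrl levels of LIN9, RBL2 and LIN52 were 1.79, 1.77 and 1.71 times as high in U2OS, and those of E2F5 and E2F4 were 2.56 and 1.74 times as high in HCT116.

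**Figure D1:**
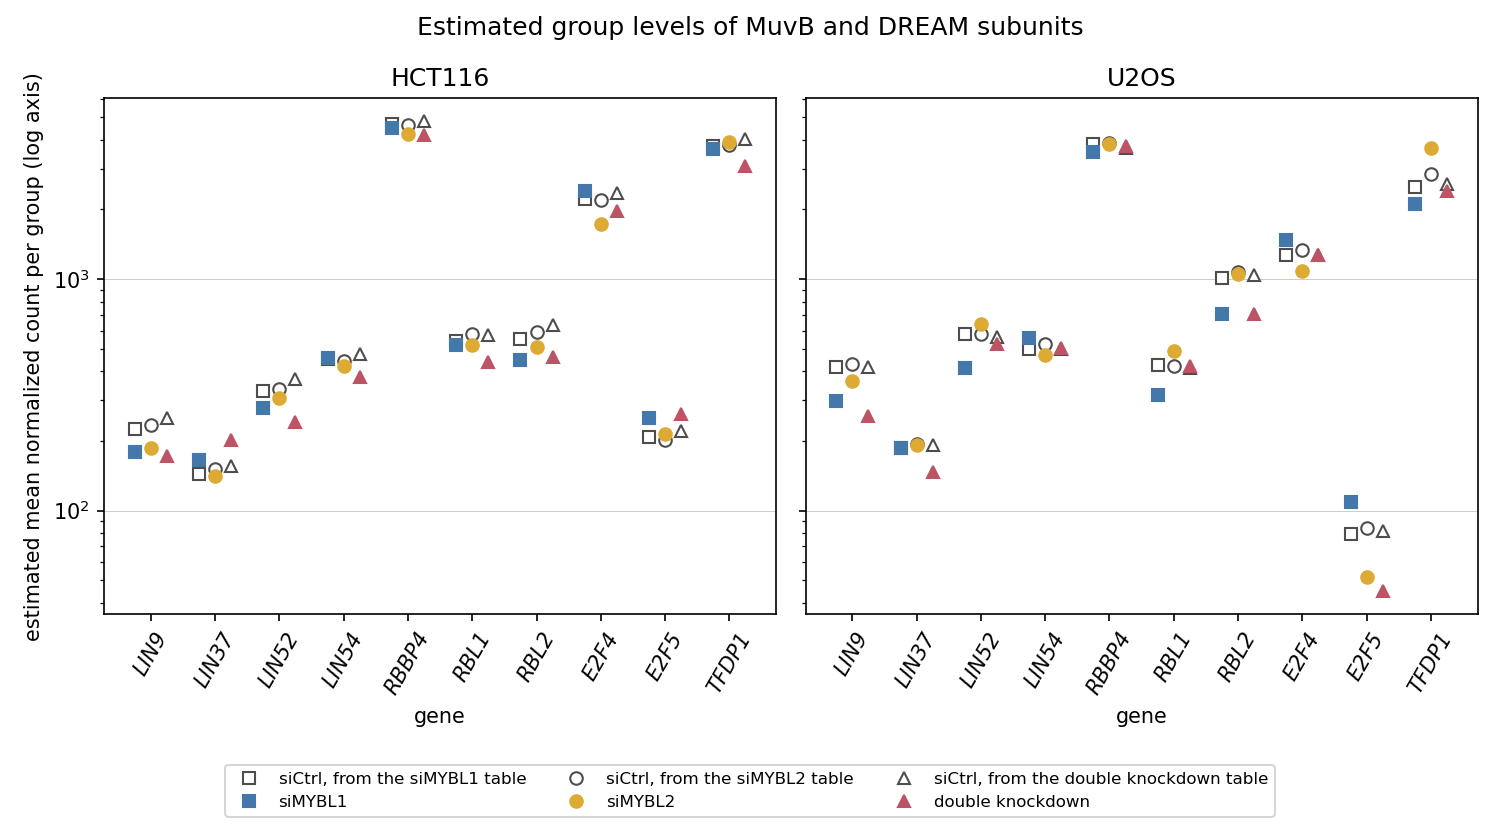
Estimated mean normalized count of each subunit in each group (log axis), for HCT116 on the left and U2OS on the right; open symbols are siCtrl as estimated from each of the 3 tables of a line, filled symbols are the knockdown of that table, and each point stands for 2 libraries. RBBP4, TFDP1 and E2F4 are the 3 highest in every group, and E2F5 is lowest in U2OS, at 45.0 to 109.

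After knockdown, 2 subunits fell, both in the U2OS double knockdown: LIN9, a scaffold of MuvB, to 61.3% of control (95% interval 43.6% to 86.1%) and RBL2, the pocket protein p130, to 67.6% (51.6% to 88.5%). The threshold was the authors' adjusted p under 0.05. In that comparison 2 of 10 subunits were called, both lower, where 12.6% of all listed genes were called and 6.06% were called lower. No subunit was called by the authors' DESeq2 test in the other 5 comparisons, where the percent of listed genes called was 0.260 for siMYBL1, 1.13 for siMYBL2 and 6.95 for the double knockdown in HCT116, and 5.71 for siMYBL1 and 5.20 for siMYBL2 in U2OS. Read beside these shares, the counts set the subunits apart from other genes in no comparison. Other lists moved in the same comparisons: 5 of 12 listed mesenchymal or bone markers were higher and 1 was lower in the U2OS double knockdown, and 4 of 15 mitochondrially encoded genes were higher in that of HCT116, with a median log2 fold change of 0.40. Their part in the subunits' values was not tested. In bulk RNA, fewer cells in a phase of the cycle and less RNA per cell cannot be told apart.

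At an unadjusted p under 0.05, 3 subunits were lower in the HCT116 double knockdown (LIN52, RBL2 and TFDP1), against 10.3% of listed genes lower at that p. In U2OS, 3 were lower after siMYBL1 (LIN9, LIN52 and RBL2), against 6.97% of listed genes, and TFDP1 alone was higher after siMYBL2, against 6.09%. Counted in either direction, the shares of listed genes at that p were 18.5% in the HCT116 double knockdown and 16.9%, 14.3% and 23.1% after siMYBL1, siMYBL2 and both in U2OS, where the double knockdown had LIN9 and RBL2 alone among the subunits. No subunit reached it after either single siRNA in HCT116, where 4.57% and 8.07% of listed genes did. Changes are given from here as the log2 fold change of knockdown over siCtrl. Medians over the 10 genes, beside those of all listed genes, were -0.06 and 0.00 after siMYBL1, -0.13 and -0.02 after siMYBL2 and -0.36 and -0.02 in the double knockdown of HCT116. In U2OS the same medians were -0.18 and 0.02, -0.02 and 0.01, and -0.10 and 0.01.

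The precision limited what could be called. Given each gene's SE, and the smallest Wald statistic called in a table, an absolute log2 change had to reach 0.50 to 1.27 after siMYBL1, 0.52 to 1.16 after siMYBL2 and 0.46 to 0.91 in the double knockdown of HCT116, depending on the subunit. The corresponding sizes in U2OS were 0.48 to 1.21, 0.54 to 1.38 and 0.44 to 1.33.

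**Figure D2:**
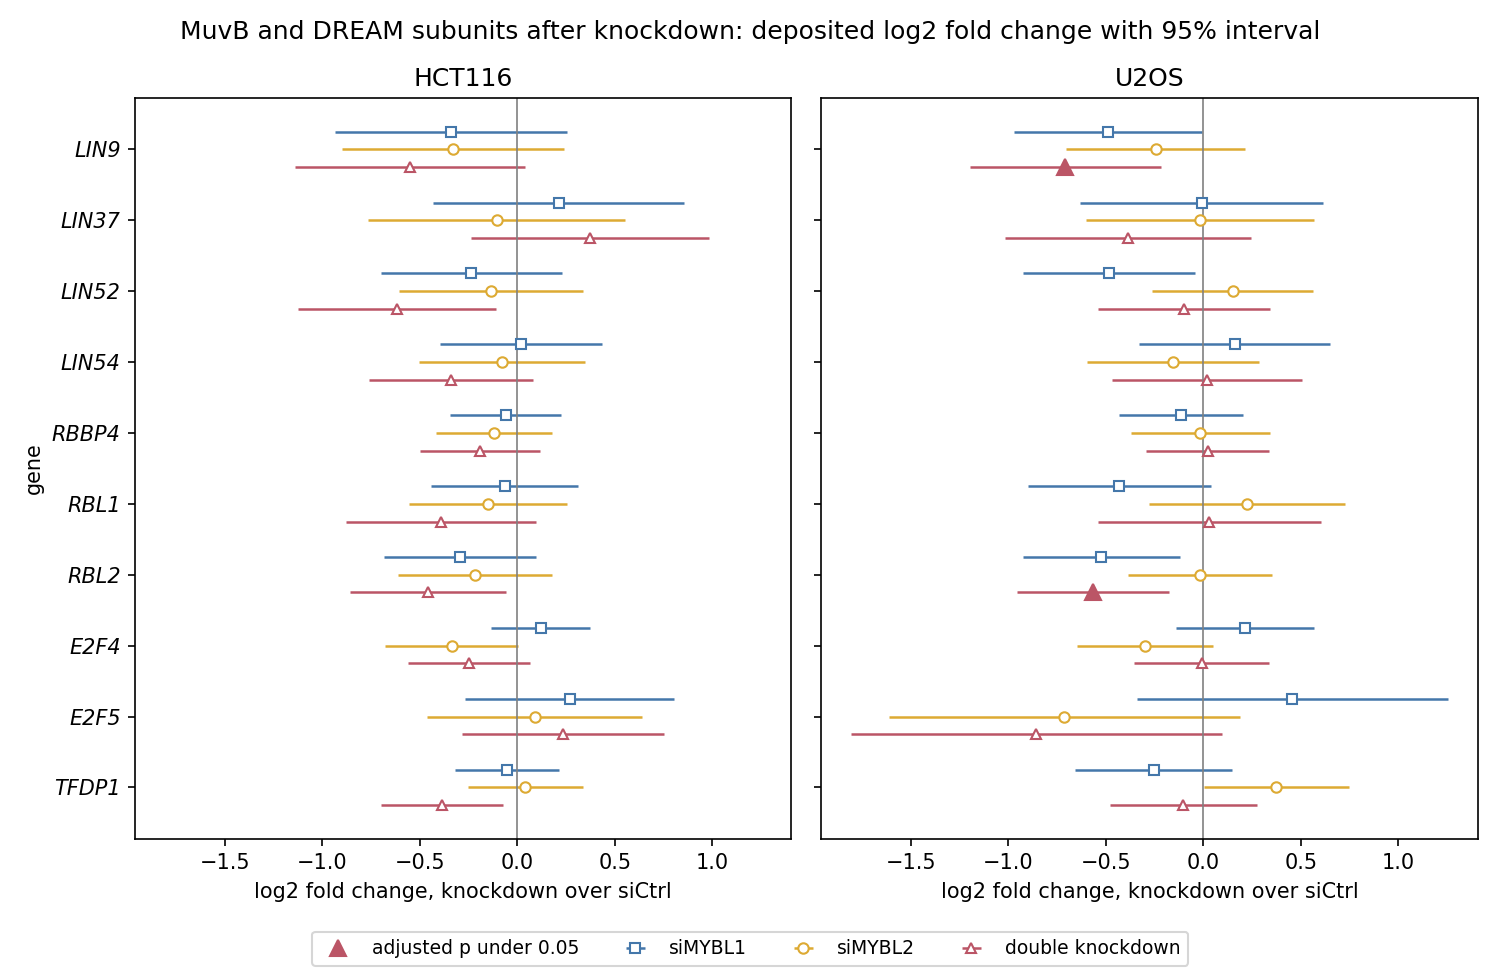
Log2 fold change of knockdown over siCtrl from the authors' deposited tables for each subunit, with 95% intervals from the deposited SE, in HCT116 (left) and U2OS (right); filled symbols have an adjusted p under 0.05. LIN9 and RBL2 in the U2OS double knockdown are the filled points, at -0.71 and -0.57.

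Among the MuvB core genes, LIN9 (chromosome 1, positions 226231149 to 226309869 of hg38, reverse strand) had estimated levels in U2OS of 419 in siCtrl and 256 in the double knockdown, each a mean of 2 libraries. Both levels derive from the base mean and fold change, so their order only restates the sign of the fold change. Whether single libraries overlapped is not known. Its change in the authors' deposited table was -0.71 (SE 0.25, p = 0.00477, adjusted p = 0.0409). After the single siRNAs in U2OS the authors' deposited tables gave -0.49 (SE 0.25, adjusted p = 0.282) for siMYBL1 and -0.25 (SE 0.23, adjusted p = 0.802) for siMYBL2. For HCT116 they gave LIN9 at -0.34 (SE 0.30) after siMYBL1, -0.33 (SE 0.29) after siMYBL2 and, with both siRNAs, -0.55 (SE 0.30, adjusted p = 0.322). Of the 4 subunits printed above with CHR letters, LIN9 and RBL2 were called in the U2OS double knockdown and LIN37 and LIN54 were not. Whether the letters have any part in these calls was not tested.

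LIN37 (chromosome 19, positions 35748361 to 35754519, forward strand) had no interval that left out 0. Its values in the authors' deposited tables ran from -0.39 (SE 0.32) in the U2OS double knockdown to 0.37 (SE 0.31) in that of HCT116. LIN54 (chromosome 4, positions 82909973 to 83012926, reverse strand), the subunit that contacts DNA, ran from -0.34 (SE 0.21) in the HCT116 double knockdown to 0.16 (SE 0.25) after siMYBL1 in U2OS in the authors' deposited tables. The intervals for LIN54 lay within -0.76 and 0.65 throughout.

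LIN52 (chromosome 14, positions 74084956 to 74201493, forward strand), whose phosphorylation by DYRK1A lets MuvB bind the pocket proteins, had its lowest values in different knockdowns of the 2 lines. In HCT116 the estimated level was 369 in siCtrl and 240 in the double knockdown, a change of -0.62 in the authors' deposited table (SE 0.26, p = 0.0176, adjusted p = 0.145). In U2OS the estimated level was 577 in siCtrl and 413 after siMYBL1, where the authors' deposited table lists -0.48 (SE 0.22, p = 0.0312, adjusted p = 0.226). In the U2OS double knockdown LIN52 was at -0.10 (SE 0.23) in the authors' deposited table. LIN52 thus passed the threshold nowhere.

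RBBP4 (chromosome 1, positions 32651142 to 32686211, forward strand) was measured with narrow intervals. All of its intervals lay between -0.50 and 0.34, and its values in the authors' deposited tables ran from -0.19 (SE 0.16) in the HCT116 double knockdown to 0.02 (SE 0.16) in the U2OS double knockdown. Changes of RBBP4 beyond these bounds lie outside the intervals. The annotation names 6 RBBP4 pseudogenes, so its counts may be shared with near-identical copies. For E2F4 the annotation names 1 pseudogene, so the same may hold there.

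Of the pocket proteins, RBL2 (chromosome 16, positions 53433977 to 53491648, forward strand) had estimated levels in U2OS of 1046 in siCtrl and 707 in the double knockdown. RBL2 changed there by -0.57 in the authors' deposited table (SE 0.20, p = 0.00434, adjusted p = 0.0381). After siMYBL1 in U2OS, levels of 1012 in siCtrl and 704 in the knockdown went a value of -0.52 in the authors' deposited table (SE 0.20, p = 0.0108, adjusted p = 0.120). RBL2 after siMYBL2 in U2OS was close to its control, at 1056 against 1069, with -0.02 listed for it in the authors' deposited table (SE 0.19, adjusted p = 0.992). In HCT116 the authors' deposited tables placed RBL2 at -0.29 (SE 0.20) after siMYBL1, -0.22 (SE 0.20) after siMYBL2 and, with both siRNAs, -0.46 (SE 0.20, p = 0.0255, adjusted p = 0.183).

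RBL1 (chromosome 20, positions 36996349 to 37095997, reverse strand) encodes p107, the pocket protein that is itself a target of E2F factors and whose promoter holds the pair of E2F matches printed above. For the double knockdowns the authors' deposited tables list it at -0.39 in HCT116 (SE 0.25, adjusted p = 0.428) and 0.03 in U2OS (SE 0.29, adjusted p = 0.974). After the single siRNAs in U2OS the authors' deposited tables gave -0.43 (SE 0.24) for siMYBL1 and 0.22 (SE 0.26) for siMYBL2. RBL1 passed in no comparison, and its intervals ranged from -0.90 to 0.73.

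The E2F dimer genes were not called in any comparison. E2F4 (chromosome 16, positions 67192155 to 67198918, forward strand), the main repressor E2F of DREAM, had its lowest values after siMYBL2, at -0.34 (SE 0.18, p = 0.0540) in HCT116 and -0.30 (SE 0.18, p = 0.0909) in U2OS in the authors' deposited tables. After siMYBL1 the authors' deposited tables gave E2F4 at 0.12 (SE 0.13) and 0.21 (SE 0.18). These 4 intervals each include 0.

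E2F5 (chromosome 8, positions 85177154 to 85217158, forward strand), the close relative of E2F4, was the subunit with the widest spread of values in U2OS. Estimated U2OS levels were 79.5 in siCtrl and 109 after siMYBL1, 84.3 and 51.4 after siMYBL2, and 81.5 and 45.0 in the double knockdown. The authors' deposited tables gave 0.46 (SE 0.41), -0.71 (SE 0.46) and -0.86 (SE 0.49, adjusted p = 0.287) in turn. In HCT116, with higher counts, E2F5 stood at 0.27 (SE 0.27), 0.09 (SE 0.28) and 0.23 (SE 0.26) in the authors' deposited tables. The SE in U2OS is the largest of any subunit, and its counts there are the smallest.

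TFDP1 (chromosome 13, positions 113584721 to 113641473, forward strand), the DNA-binding partner of the E2Fs, had an estimated level in HCT116 of 4049 in siCtrl and 3094 in the double knockdown, where the authors' deposited table lists -0.39 (SE 0.16, p = 0.0150, adjusted p = 0.131). In U2OS its levels were 2837 in siCtrl and 3678 after siMYBL2, and the authors' deposited table lists 0.37 (SE 0.19, p = 0.0492, adjusted p = 0.346). The U2OS double knockdown was at -0.10 (SE 0.19) in the authors' deposited table. TFDP1 lay below its control in the first of these and above it in the second, without passing in either.

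Whether depleting both factors differed from depleting 1 was tested as the difference of log2 fold changes, adjusted over all genes listed in both tables. No subunit passed in any of the 4 such comparisons, where the percent of genes called was 1.28 (double against siMYBL1) and 0.645 (double against siMYBL2) in HCT116 and 1.54 and 1.05 in U2OS. For RBL2 in U2OS the double knockdown less siMYBL2 gave -0.55 (SE 0.27, 95% interval -1.08 to -0.01, adjusted p = 0.865). For E2F5 in U2OS the double knockdown less siMYBL1 gave -1.31 (SE 0.63, interval -2.55 to -0.07, adjusted p = 0.643). These 2 subunits had an unadjusted p under 0.05, 1 in each U2OS comparison, where 5.57% and 6.96% of genes did, and no subunit did in HCT116, where 5.64% and 3.25% of genes did. TFDP1 in HCT116 came close to it, with a double knockdown less siMYBL2 of -0.43 (SE 0.22, interval -0.86 to 0.000909). The shared controls make these errors too large, so they were also computed with an assumed correlation of 0.5 between the fold changes of a line. No subunit passed after adjustment then either, where the percent of genes called in HCT116 was 4.14 against siMYBL1 and 1.83 against siMYBL2, and in U2OS 5.49 and 4.11. At an unadjusted p under 0.05 with that correlation, HCT116 had E2F4 (-0.37, adjusted p = 0.167) and TFDP1 (-0.34, adjusted p = 0.243) against siMYBL1 and TFDP1 against siMYBL2 (adjusted p = 0.176), beside 13.9% and 8.71% of genes. U2OS had E2F5 against siMYBL1 (adjusted p = 0.0604), and RBL2 (adjusted p = 0.0890) and TFDP1 (-0.48, adjusted p = 0.178) against siMYBL2, beside 15.6% and 12.5% of genes. LIN9 in U2OS differed by -0.22 (interval -0.91 to 0.47) from siMYBL1 and by -0.46 (interval -1.14 to 0.21) from siMYBL2.

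The responses of the 2 lines were compared in the same way, between tables that share no library. The remaining MYBL1 and MYBL2 levels of each line, given above, were not taken into account. No subunit passed, and the percent of genes called was 0.0594 for siMYBL1, 0.215 for siMYBL2 and 1.27 for the double knockdown. At an unadjusted p under 0.05 the shares were 4.79%, 4.41% and 9.49%, and E2F5 in the double knockdown was the 1 subunit there. E2F5 had the widest difference, U2OS less HCT116, in the double knockdown, at -1.09 (SE 0.55, interval -2.17 to -0.01, adjusted p = 0.522). The called genes LIN9 and RBL2 differed between lines in the double knockdown by -0.16 (interval -0.92 to 0.61) and -0.11 (interval -0.67 to 0.45). Their fall in U2OS is therefore not shown to be larger than in HCT116.

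**Figure D3:**
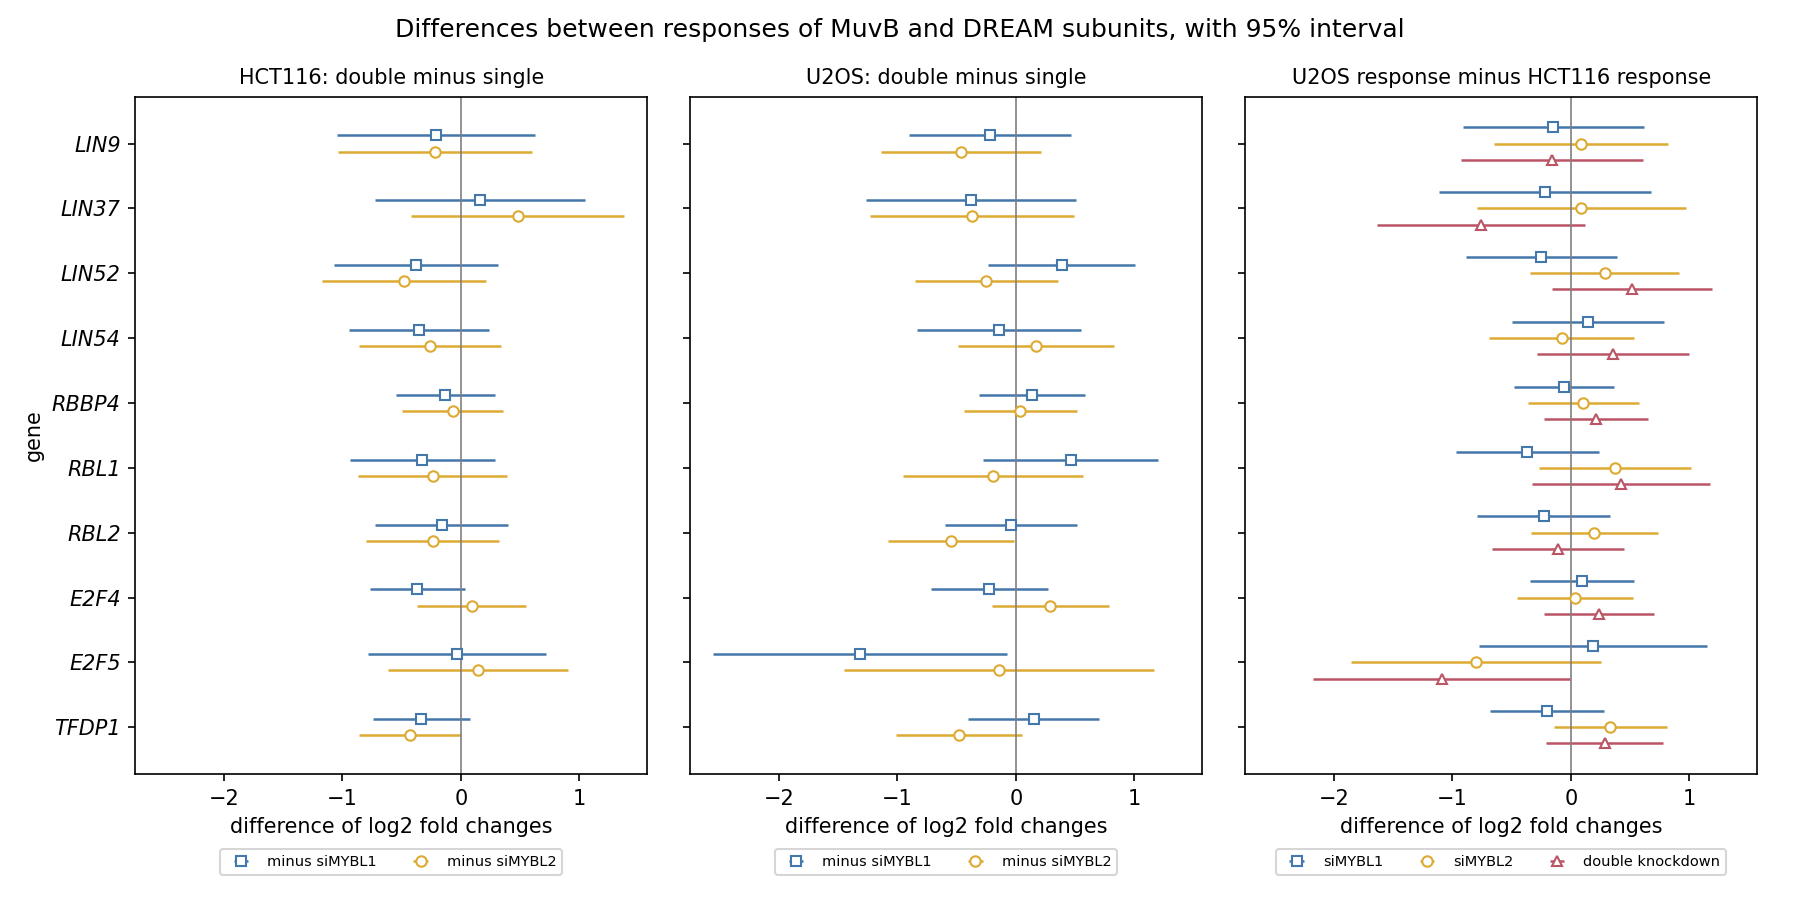
Differences of log2 fold changes with 95% intervals for each subunit: double knockdown less each single knockdown in HCT116 (left) and U2OS (middle), and U2OS response less HCT116 response (right). No subunit passed after adjustment, and E2F5 has the widest intervals in the U2OS panels.

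Genes around the complex gave a background for these values, from lists chosen by known function, with earlier results of these data known. Of 9 relatives of the subunits, 3 were lower in the HCT116 double knockdown: E2F8 at -1.04 (SE 0.22, adjusted p = 0.000167), RBBP7, the close relative of RBBP4, at -0.49 (SE 0.14, adjusted p = 0.0164), and E2F3 at -0.53 (SE 0.18, adjusted p = 0.0454), as the authors' deposited table lists them. After siMYBL1 in U2OS, 3 of the 9 were lower in the authors' deposited table, RB1 at -1.23 (SE 0.22, adjusted p = 7.58e-06), E2F2 at -0.93 (SE 0.23) and E2F1 at -0.68 (SE 0.19). In the U2OS double knockdown 2 were lower, E2F8 at -1.09 (SE 0.38) and RB1 at -0.58 (SE 0.21) in the authors' deposited table. No relative was called in the other 3 comparisons. Of all listed genes, 6.95%, 5.71% and 12.6% were called in either direction in the 3 comparisons named, in that order. RB1, the founding pocket protein, was listed at -0.07 after siMYBL2 in the authors' deposited table for U2OS (SE 0.19, adjusted p = 0.965). The relatives' medians were -0.49 and -0.39 in the HCT116 double knockdown and after siMYBL1 in U2OS, beside -0.36 and -0.18 for the 10 subunits.

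Among regulators of DREAM assembly, 17 of 18 were listed in each table. The gene not listed was CCND2 in HCT116 and a different one in U2OS, so CCND2 has no value in HCT116. CDKN1A (p21), which favours DREAM by inhibiting cyclin-dependent kinases, rose in HCT116 by 0.57 on the log2 scale with siMYBL2 (SE 0.15, adjusted p = 0.0230) and by 1.70 with both siRNAs (SE 0.17, adjusted p = 8.53e-21), per the authors' deposited tables. In U2OS the authors' deposited table for the double knockdown lists CDKN1A at 1.30 with a wide error (SE 0.62, adjusted p = 0.179). Also higher in the HCT116 double knockdown were CCND1 at 0.48 (SE 0.13) and CDK6 at 0.56 (SE 0.17), partners whose kinase activity dissolves DREAM, and lower was the kinase inhibitor CDKN2C at -1.40 (SE 0.34) in the authors' deposited table. In the U2OS double knockdown CCND2 was higher at 0.80 (SE 0.16), and CDKN2C at -1.02 (SE 0.23) and the corepressor SIN3A at -0.54 (SE 0.18) were lower in the authors' deposited table. In U2OS the single siRNAs gave 1 higher and 1 lower regulator for siMYBL1 (CCND2 and CDKN2C) and 1 higher for siMYBL2 (CCNE2). In the double knockdowns of HCT116 and U2OS, 23.5% and 17.6% of listed regulators were called, beside 6.95% and 12.6% of all listed genes. After siMYBL1 and siMYBL2 in U2OS the shares were 11.8% and 5.88%, beside 5.71% and 5.20%. With siMYBL2 in HCT116 the share was 5.88%, beside 1.13%. DYRK1A was not called anywhere, with 0.31 (SE 0.20) in the HCT116 double knockdown in the authors' deposited table.

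Of 40 late (G2/M) targets, all 40 fell in each double knockdown, with medians of -1.72 in HCT116 and -2.22 in U2OS, while 0 and 2 of the 10 subunits were called and their medians were -0.36 and -0.10. After single siRNAs the late targets called lower numbered 0 (siMYBL1) and 20 (siMYBL2) in HCT116 and 19 and 25 in U2OS. Of 40 early (G1/S) targets, 20 were lower in the HCT116 double knockdown (median -0.53) and 6 in that of U2OS (median -0.12), among them RRM2 of ribonucleotide reductase at -1.18 (SE 0.15) and -1.10 (SE 0.16) in the authors' deposited tables. After single siRNAs the early targets called lower numbered 0 (siMYBL1) and 2 (siMYBL2) in HCT116 and 7 and 5 in U2OS, where siMYBL1 alone had a median of -0.37. Of all listed genes, 6.95% and 12.6% were called in either direction in the double knockdowns of HCT116 and U2OS, with 6.06% lower in U2OS. The 6 early targets lower in the U2OS double knockdown were 15% of the list. For siMYBL1 and siMYBL2 the shares of all listed genes were 0.260% and 1.13% in HCT116 and 5.71% and 5.20% in U2OS. What part the cells' position in the cycle had in the subunits' values was not tested.

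**Figure D4:**
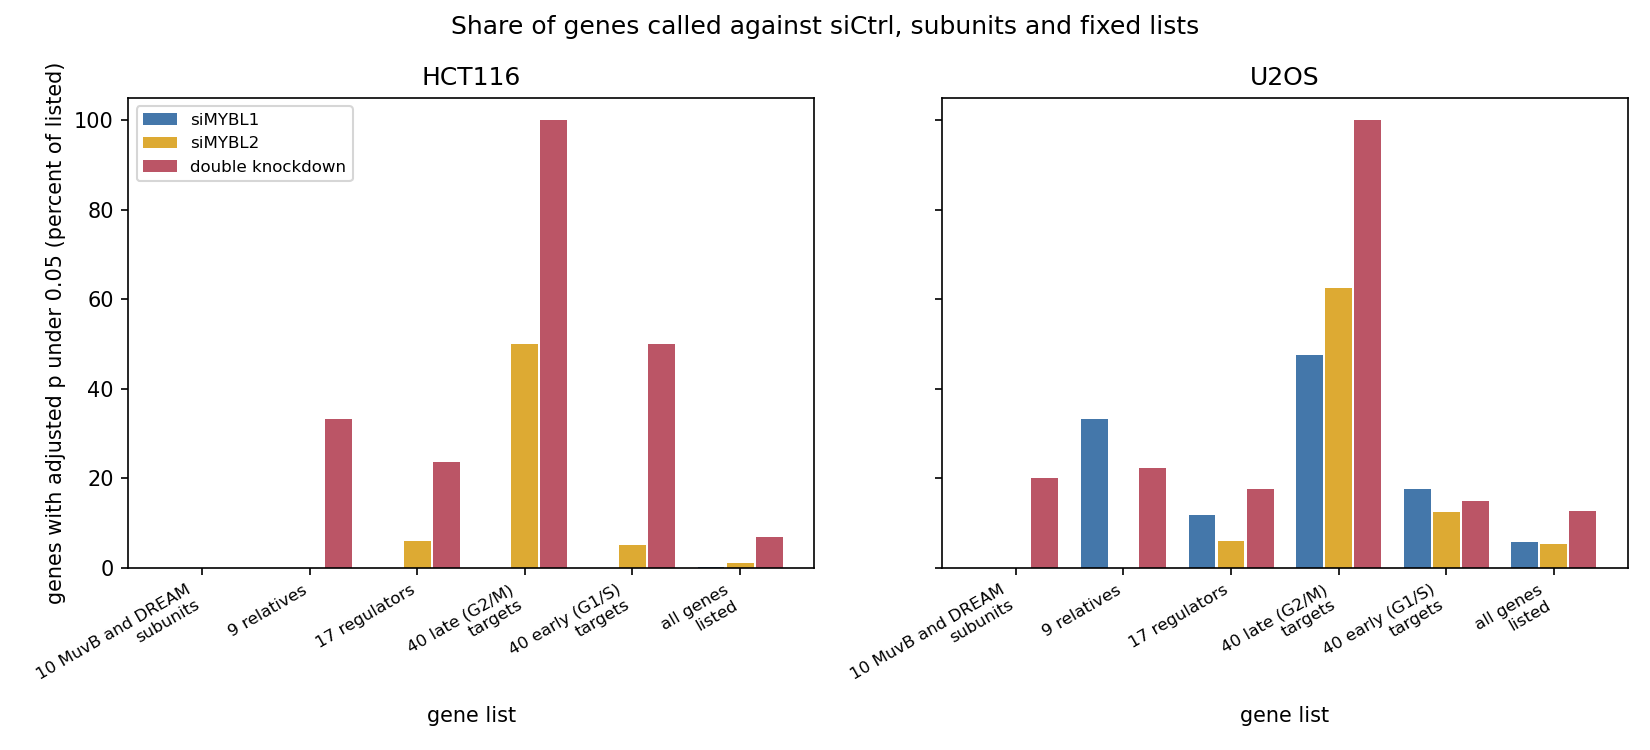
Percent of listed genes with an adjusted p under 0.05 against siCtrl, for the 10 subunits, 4 lists of related genes and all listed genes, in HCT116 (left) and U2OS (right), with 1 bar per knockdown. The late targets reach 100% in both double knockdowns, and the subunits have a bar only for the U2OS double knockdown, at 2 of 10 genes beside 12.6% of all genes.

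The genes whose 6 values lay nearest to those of LIN9, among 10265 genes whose base mean reached 100 in all tables, were IPO11, SEC23A and SMARCE1, at a root mean squared difference of 0.05, 0.08 and 0.09 on the log2 scale. The median gene lay 0.51 away from LIN9. Nearest to RBL2 were ORC3, INIP and ABRAXAS2, at 0.06, 0.06 and 0.07, where the median gene lay 0.44 away. These 6 comparisons rest on 2 sets of controls, and nearness over 6 values is a description.

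The kit's strand setting is not given in the sources used here, so overlapping genes could share reads with a subunit. LIN9, E2F4 and TFDP1 overlap 0 annotated genes in GENCODE release 29. RBL2 overlaps AKTIP on the opposite strand, and AKTIP is listed at 0.03 (SE 0.21, adjusted p = 0.970) by the authors' deposited table of the U2OS double knockdown, where RBL2 fell. LIN54 overlaps THAP9 and RBBP4 overlaps SYNC, each on the opposite strand and listed with base means of 75.0 to 136 and 43.5 to 116. E2F5 overlaps C8orf59, also on the opposite strand, with base means of 981 to 1494. On their own strand, LIN37, LIN52, LIN54, RBL1 and RBL2 overlap annotated genes, among them the protein-coding AD000671.1 at LIN37. Overlaps on the same strand could share reads under any strand setting. The overlaps given here are of gene spans, and whether exons overlap is not shown. The same-strand gene at RBL2 is annotated as intronic. None of these same-strand genes was listed in any comparison, so they have no values here.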

How the data were processed

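Total RNA of 16 libraries was sequenced in read pairs, and the submitters' processing notes name cutadapt 4.4, Salmon 1.10.1, DESeq2 1.40 and hg38, without order or settings. The sources used here do not give the annotation or how transcripts were summed to genes. The deposited files are 6 tables of the authors' comparisons. Per the file headers, the base mean is a signal (mean normalized count over 4 libraries), the fold change and its standard error are on the log2 scale, and the Wald statistic is a score. The deposited p-value matched a two-sided normal test of that score, and the adjusted p the Benjamini-Hochberg adjustment over listed genes. The authors' own mark of a changed gene also requires an absolute log2 fold change over 0.5. Depth per library is unknown, and the planned fits of counts were replaced by those planned for tables alone.

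Computed here (Python 3.11.15, scipy 1.17.1) were 95% intervals, group levels (siCtrl level = 2 base means over 1 plus the fold change), transcript lengths from GENCODE release 29, motif matches, and differences of log2 fold changes with summed variances and normal p-values, adjusted over all shared genes. Within a line the shared controls make that error too large. The difference test was checked on simulated data with independent errors and planted changes larger than most differences seen for the subunits. Errors correlated through shared controls and smaller changes were not part of that check. By rule, the text could name the 10 subunits, the targets MYBL1 and MYBL2, and up to 3 called genes per list, direction and comparison. It could also name CDKN1A, RB1, RBBP7, 3 others for which no values are given here, and the 3 genes nearest to each called subunit. DYRK1A and the overlapping genes were named after their values were seen. The members and lists were chosen with earlier results of these data known. Labels call the 2 libraries of a group biological replicates.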

Additional observations from a re-analysis of the deposited data

How the results depend on the processing

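The number of subunits called was recomputed under 4 other settings for each of 13 comparisons, 1 more for the 4 comparisons of double with single knockdowns, and 1 chosen after seeing the data (an absolute log2 change over 0.5 as well). In the U2OS double knockdown 0 of 10 subunits passed at a threshold of 0.01, in place of 2. The other 68 recomputed counts were as reported. With adjustment over genes whose base mean reached 100, 9 subunits were tested in each comparison that involved U2OS. E2F5 fell below that base mean there, so this setting is no check of it. Where 0 subunits had been called, the stricter threshold and the added size rule could only give 0 again, so those counts are no check. LIN9 and RBL2 kept their direction and stayed under 0.05 with adjustment over genes whose base mean reached 100 (adjusted p = 0.0321 and 0.0299), over genes listed in all 6 tables (0.0366 and 0.0341) and after centring on the median gene (0.0379 and 0.0343). With a correlation of 0.5 assumed for the shared controls, the smallest adjusted p for double against single was that of E2F5 against siMYBL1 in U2OS (0.0604). No paired analysis was possible because the tables hold no values per library, and for the same reason leaving out a replicate, DESeq2 against edgeR and filters on counts were not run. Depth per library is unknown. The deposited errors set the limit for each subunit, and for E2F5 in U2OS, the lowest in counts, they were 0.41 to 0.49.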
